A study of Mus musculus with 10 samples.

Results

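Cholesterol and fatty acids are made in most cells by a set of enzymes whose genes are switched on together, and 29 genes of this set were followed here in the mouse colon. The members were chosen by symbol from knowledge of the pathway, as genes of sterol and fatty acid synthesis under sterol regulatory element-binding proteins (SREBPs). All 29 were among the 29320 genes of the count table, and all 29 were among the 20472 genes that passed the filter on low counts. They comprise 7 genes of the mevalonate pathway, 3 that make squalene and lanosterol, 8 that turn lanosterol into cholesterol, 5 regulators or sterol carriers and 6 genes of fatty acid synthesis.

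Colon tissue of 8-week-old female mice on Day 5 was profiled by RNA sequencing, with wild-type (WT) mice purchased as C57BL/6 and *ERdj5*-KO mice obtained from a repository and bred by the authors. *ERdj5* (*Dnajc10*) encodes a disulfide reductase of the endoplasmic reticulum, and dextran sulfate sodium (DSS), which injures the colonic epithelium, was given as 2% in drinking water. There were 10 libraries in 4 groups. Untreated WT mice and untreated *ERdj5*-KO mice had 2 libraries each, and DSS-treated WT mice and DSS-treated *ERdj5*-KO mice had 3 each. The libraries are called here by the number each carries in the count table, namely 2 and 3 for untreated WT, 2, 3 and 4 for DSS-treated WT, 2 and 3 for untreated KO, and 1, 2 and 4 for DSS-treated KO. Whether each library came from 1 mouse is not stated, and the p-values therefore measure how far libraries spread. WT and KO mice came from different suppliers, so genotype and source cannot be told apart.

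SREBPs are held in the endoplasmic reticulum membrane by the escort protein Scap and the retention proteins of the Insig family. When membrane sterol falls, Scap carries the SREBP to the Golgi apparatus, where it is cut, and the released fragment enters the nucleus. Srebf2 is known mainly for driving the cholesterol genes and Srebf1 mainly for driving the fatty acid genes. In the colon, epithelial cells that divide and renew throughout life use these pathways to build membranes.

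Promoter sequences show the stretch of DNA on which such regulation is known to act, and 6 are printed because these genes carry the results described further on or, for *Hmgcs1*, the only match to the searched sterol element. They are the 250 bases before a RefSeq transcript start in GRCm38.p6, the assembly that mm10 also denotes, and are written 5′ to 3′ on the strand of the gene. Capitals mark matches on either strand to 4 searched motifs, which were the sterol regulatory element consensus TCACNCCAC, the NF-Y box CCAAT, the Sp1 box GGGCGG and the E-box CACGTG. The windows lie at chr13:119690101-119690350 (plus strand) for *Hmgcs1*, chr5:114444019-114444268 (plus) for *Mvk*, chr13:8885356-8885605 (plus) for *Idi1*, chr5:28071162-28071411 (plus) for *Insig1*, chr11:100528001-100528250 (minus) for *Acly* and chr11:120824548-120824797 (minus) for *Fasn*.
Hmgcs1: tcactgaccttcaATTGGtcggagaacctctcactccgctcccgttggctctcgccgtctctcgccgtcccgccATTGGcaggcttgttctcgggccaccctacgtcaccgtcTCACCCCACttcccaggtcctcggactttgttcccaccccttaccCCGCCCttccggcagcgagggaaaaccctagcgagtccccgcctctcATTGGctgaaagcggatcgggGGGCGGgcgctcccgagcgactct
Mvk: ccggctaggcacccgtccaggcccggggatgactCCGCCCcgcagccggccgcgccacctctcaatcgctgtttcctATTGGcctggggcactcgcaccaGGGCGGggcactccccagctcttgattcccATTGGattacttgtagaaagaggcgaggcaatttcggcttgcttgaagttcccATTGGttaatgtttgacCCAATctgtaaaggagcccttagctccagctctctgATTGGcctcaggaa
Idi1: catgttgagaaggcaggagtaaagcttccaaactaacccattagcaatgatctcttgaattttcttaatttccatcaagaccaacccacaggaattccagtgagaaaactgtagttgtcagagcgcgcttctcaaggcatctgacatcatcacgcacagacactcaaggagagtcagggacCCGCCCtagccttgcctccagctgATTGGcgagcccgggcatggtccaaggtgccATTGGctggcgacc
Insig1: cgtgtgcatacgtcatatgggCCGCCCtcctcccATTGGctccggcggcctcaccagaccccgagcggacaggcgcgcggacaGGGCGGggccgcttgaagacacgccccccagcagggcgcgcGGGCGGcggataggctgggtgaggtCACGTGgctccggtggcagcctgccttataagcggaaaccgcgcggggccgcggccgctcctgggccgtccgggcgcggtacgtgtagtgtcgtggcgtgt
Acly: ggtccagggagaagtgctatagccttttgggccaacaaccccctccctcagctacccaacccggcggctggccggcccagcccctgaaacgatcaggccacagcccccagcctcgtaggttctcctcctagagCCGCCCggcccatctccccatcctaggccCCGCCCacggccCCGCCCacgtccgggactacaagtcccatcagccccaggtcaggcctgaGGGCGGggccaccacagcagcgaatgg
Fasn: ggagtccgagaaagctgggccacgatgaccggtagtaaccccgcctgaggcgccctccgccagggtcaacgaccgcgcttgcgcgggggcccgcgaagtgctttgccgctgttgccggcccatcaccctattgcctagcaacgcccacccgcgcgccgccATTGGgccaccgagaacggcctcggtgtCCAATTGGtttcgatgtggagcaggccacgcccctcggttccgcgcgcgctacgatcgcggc

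In the *Hmgcs1* window the sterol element began 137 bases before the start on the strand of the gene. *Mvk* held 5 NF-Y boxes and 2 Sp1 boxes, and *Acly* held 4 Sp1 boxes and no NF-Y box. *Insig1* was the one among the 6 with an E-box, 101 bases before the start. In the *Fasn* window an NF-Y box on the gene's strand overlapped one on the opposite strand. That window lies inside the annotated gene, which spans chr11:120805958-120825166, and so precedes an internal transcript start. Among the windows not printed, those of *Elovl6* and *Acaca* held none of the 4 motifs, and the *Acaca* window too lies inside its annotated gene. The *Acat2* window held 1 Sp1 box and no NF-Y box, and 1 of the *Dhcr7* windows held 2 NF-Y boxes and 3 Sp1 boxes. That *Dhcr7* window also lies inside the annotated gene and precedes an internal transcript start. A promoter was matched for 23 of the 29 members, with 29 promoters in all because some genes have several starts. Of these 29, 65.5% held an NF-Y box and 72.4% an Sp1 box, against 33.8% and 32.7% of 32851 promoters of all genes. The E-box was in 17.2% of member promoters and 6.02% of all promoters. The sterol element was in 3.45% (1 promoter) and 1.05%. These are descriptions of letters, and a missing match says only that those letters were not in this window.

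Total counts ranged from 49689389 to 72197887 per library, and the members took 0.543% to 0.834% of them. Levels are given as CPM, the count of a gene scaled to the size of its library after TMM, edgeR's correction for library composition. *Dnajc10*, the targeted gene, lay at 113 to 140 CPM in the WT libraries and at 18.4 to 30.4 CPM in the KO libraries, so that the genotypes did not overlap. The 7 epithelial markers of colon (*Epcam*, *Cdh1*, *Krt8*, *Krt18*, *Krt20*, *Vil1* and *Cdh17*) were present in every library, with *Epcam* at 1380 to 2100 CPM. Other tissue components differed between groups. Between the DSS-treated groups all 6 smooth muscle markers were called lower in the KO mice, with summed levels of 290 to 482 CPM against 1590 to 2900 CPM, while untreated KO libraries had 5270 and 6290 CPM and untreated WT libraries 1680 and 2640 CPM. All 6 proliferation markers were called higher in DSS-treated KO mice than in either DSS-treated WT mice or untreated KO mice, and without DSS all 6 were lower in the KO genotype. Summed proliferation markers were 608 to 966 CPM in DSS-treated KO, 327 to 446 CPM in DSS-treated WT libraries, 189 and 194 CPM in untreated KO libraries, and 393 and 598 CPM in untreated WT libraries. Also lower in the DSS-treated KO mice were 4 of 5 glial and 3 of 4 T cell markers. Without DSS all 4 T cell markers were lower in KO mice, with summed levels of 6.98 and 4.55 CPM against 76.2 and 54.6 CPM in WT libraries. Of the 4 neutrophil markers, 3 were called higher in DSS-treated KO mice, with summed levels of 67 to 423 CPM against 6.47 to 7.53 CPM. Of the 8 adipocyte markers 1 was called lower in DSS-treated KO compared with DSS-treated WT mice, where 6 had negative and 2 positive estimates. In DSS-treated KO compared with untreated KO mice 3 of these markers were called lower, and all 8 had negative estimates. Their summed levels were 21.3 to 22 CPM in DSS-treated KO and 20.2 to 31.3 CPM in DSS-treated WT libraries. Untreated libraries had 24.3 and 84.9 CPM in KO and 91 and 45.9 CPM in WT mice. *Plin1*, which coats fat droplets in adipocytes, was at 0 in the 3 DSS-treated KO libraries and in DSS-treated WT library 4. The part of these components in the results on the members was not tested, and in bulk tissue fewer cells of a type and less RNA per cell cannot be told apart.

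DSS-treated KO libraries 1 and 4 lay at opposite ends of their group for the members. Library 1 was the lowest of its group for all 18 enzymes of sterol synthesis, and library 4 was the highest for 17 of them. The TMM factor was 1.05 in library 1, 0.951 in library 2 and 0.874 in library 4. The summed level of the 18 enzymes was 2190, 2980 and 4010 CPM in DSS-treated KO libraries 1, 2 and 4, while DSS-treated WT libraries lay close together at 2820, 2740 and 3010 CPM. Untreated KO libraries had 2870 and 2230 CPM and untreated WT libraries 2690 and 3080 CPM. Epithelial markers took the same order in the DSS-treated KO libraries, at 9220, 13100 and 14600 CPM. Set against the epithelial markers of the same library, the enzymes came to 23.8%, 22.7% and 27.5% in DSS-treated KO, 23.1%, 24.5% and 25.7% in DSS-treated WT libraries, 24.3% and 21.9% in untreated KO libraries, and 21% and 22.3% in untreated WT libraries. DSS-treated KO library 1 also had the highest summed neutrophil markers, 423 CPM against 67 and 94.2 CPM in the other two. The SD of log2 CPM between DSS-treated KO libraries had a median of 0.38 over the 18 enzymes, against 0.11 between DSS-treated WT libraries, and it was larger in the KO group for 18 of 18. For the 6 fatty acid genes the medians were 0.18 and 0.17.

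**Figure D1:**
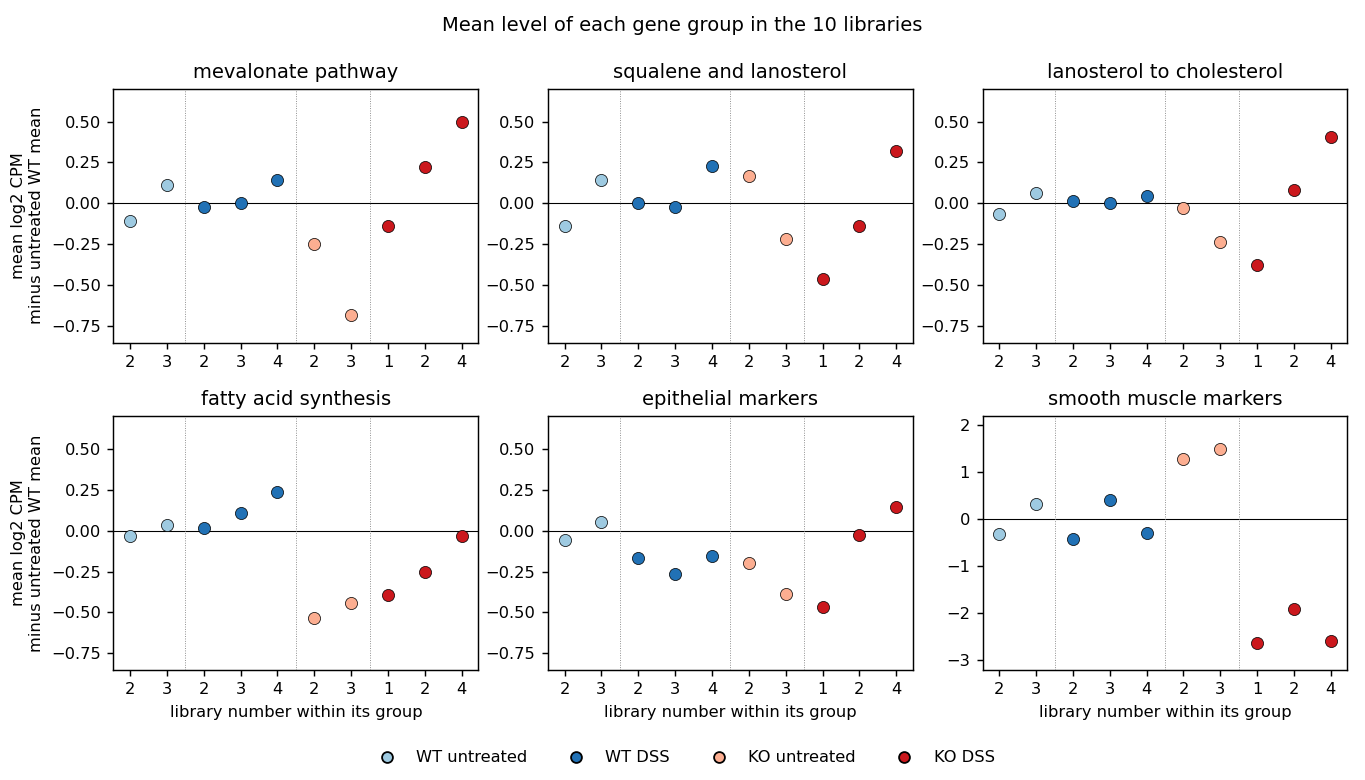
Mean log2 CPM of 4 member groups, the epithelial markers and the smooth muscle markers in each of the 10 libraries, as the difference from the untreated WT mean (vertical axis, with a wider scale for smooth muscle), by library number within its group (horizontal axis). DSS-treated KO libraries 1, 2 and 4 lie at -0.14, 0.22 and 0.50 for the mevalonate pathway, while the 3 DSS-treated WT libraries lie between -0.02 and 0.14.

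*Acly*, *Fasn* and *Scd1* of fatty acid synthesis and the SREBP retention factor *Insig1* were lower in DSS-treated KO compared with DSS-treated WT mice, *Elovl6* was higher, and none of the 18 sterol enzymes passed. Of the 29 members 1 was called higher and 4 lower, where 14.9% of all tested genes were called higher and 14.9% lower. The count of lower members is near that share, and no difference from it was tested. A call means an adjusted p under 0.05 in the quasi-likelihood test of edgeR, with Benjamini-Hochberg adjustment over all 20472 tested genes. The median log2 fold change of the members was -0.03, and that of all tested genes was -0.04. Among the sterol enzymes, 1 was higher and 2 were lower at an unadjusted p under 0.05, and DESeq2 also called 0. Their log2 fold changes ran from -0.41 to 0.49 with a median of 0.10. Without DSS-treated KO library 1, 3 sterol enzymes were called higher, namely *Mvd* (0.46, adjusted p = 0.0414), *Cyp51* (0.71, adjusted p = 0.0186) and *Ebp* (0.44, adjusted p = 0.0071). Without DSS-treated KO library 4, *Lss* was called lower (-0.58, adjusted p = 0.0477) and none was called higher.

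More members were called within the *ERdj5*-KO genotype. With DSS, 11 members were called higher and 3 lower in KO mice compared with untreated KO mice, where 23.1% and 22.3% of all tested genes were called. The median of the members was 0.26 on the log2 scale, and that of all genes was 0.02. The rises were 6 of the 7 mevalonate pathway genes, *Cyp51*, *Srebf1*, *Acaca*, *Scd1* and *Scd2*, and the falls were *Dhcr7*, *Insig1* and *Acly*. The number of rises was 7 on leaving out DSS-treated KO library 2 or library 4. Over all genes 4478 and 4746 were then called higher, against 4730 with all libraries. Leaving out either untreated KO library leaves that group without a replicate, and fewer genes were then called, among the members and over all. Without untreated KO library 3, the rises that missed the threshold had estimates from 0.30 for *Mvk* to 0.77 for *Scd2*. Without untreated KO library 2, the falls of *Dhcr7* and *Insig1* missed it, at -0.39 and -0.52. This comparison and that of untreated KO with untreated WT mice share the untreated KO libraries, and it shares the DSS-treated KO libraries with the comparison of the treated groups.

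**Figure D2:**
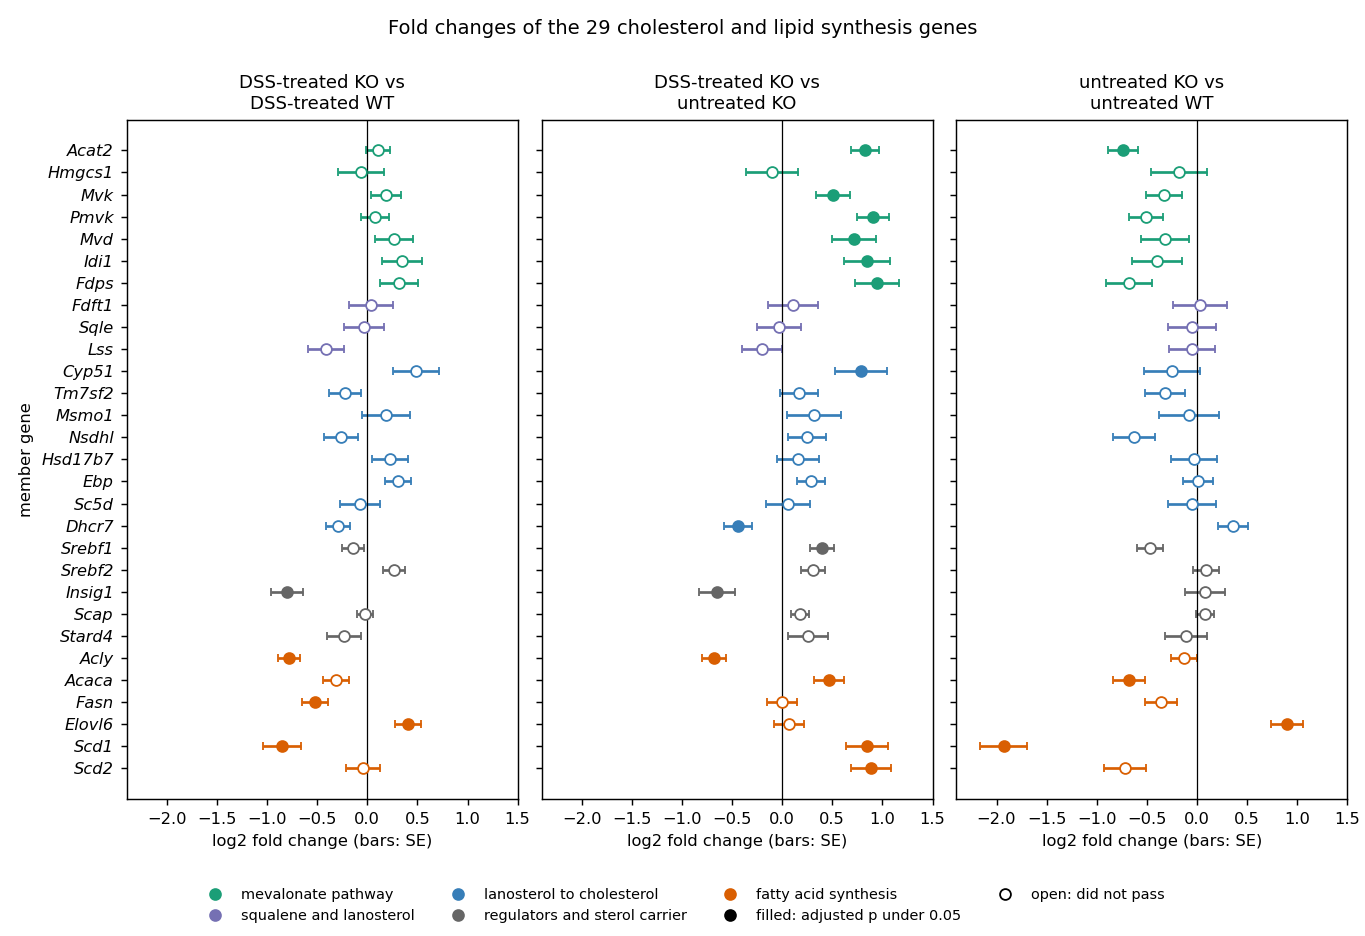
Log2 fold change of the 29 members (horizontal axis, bars are the SE of the fit) in 3 comparisons, with genes in order of the pathway (vertical axis), colours for their role, and filled points for an adjusted p under 0.05. In DSS-treated KO compared with DSS-treated WT mice 5 points are filled, none of them among the 18 sterol enzymes, and in DSS-treated KO compared with untreated KO mice 14 are filled, of which 6 belong to the mevalonate pathway.

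The mevalonate pathway joins acetyl units into mevalonate and then into the isoprenoid units of sterols, ubiquinone and prenylated proteins. Of its 7 genes, 6 rose in DSS-treated KO compared with untreated KO mice. Without untreated KO library 3 fewer of these 6 passed, as did fewer of all genes. The estimates of *Mvk*, *Mvd*, *Idi1* and *Fdps*, which then missed the threshold, were 0.30, 0.57, 0.57 and 0.72. For these 6 genes both untreated KO libraries lay below the other groups' means. *Hmgcs1*, which condenses acetyl-CoA with acetoacetyl-CoA, was the gene of the pathway that did not pass. It had the highest level per transcript length of the 7, with a mean of 202 CPM per kilobase in untreated WT libraries (over the length of the longest protein-coding transcript in GENCODE vM21). Its levels were 647 and 754 CPM in untreated WT, 586, 577 and 636 CPM in DSS-treated WT, 709 and 526 CPM in untreated KO, and 373, 573 and 777 CPM in DSS-treated KO libraries. The groups overlapped, and the log2 fold change between DSS-treated KO and untreated KO was -0.10 with a 95% interval of -0.68 to 0.48.

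*Acat2* encodes the thiolase that makes acetoacetyl-CoA. Its levels were 64.8 and 77.3 CPM in untreated WT, 69.1, 69.3 and 72.3 CPM in DSS-treated WT, 47.1 and 38 CPM in untreated KO, and 65.9, 79.5 and 81.8 CPM in DSS-treated KO libraries. Both untreated KO libraries lay below all 8 others. It rose by 0.83 in log2 terms (SE 0.14, adjusted p = 0.00119) in DSS-treated KO compared with untreated KO mice, a call kept in all 14 alternatives tried, which were 4 other settings of the analysis and the omission of each of the 10 libraries. In untreated KO compared with untreated WT mice it was -0.74 (SE 0.15, adjusted p = 0.0158), a call lost without untreated WT library 3 (adjusted p = 0.108) or untreated KO library 3 (adjusted p = 0.124). Of the 50-base words of its transcript, 45.9% also occur in *Acat3*, and how the authors counted such reads is not stated in the sources used. *Acat3* itself lay at 4.45 to 9.35 CPM and was called in the same comparisons and directions as *Acat2*, at 0.86 (SE 0.19, adjusted p = 0.005) within the KO genotype, -0.78 (SE 0.20, adjusted p = 0.0405) between the untreated groups and 0.79 (SE 0.26, adjusted p = 0.0487) in the interaction. On the opposite strand 13.2% of the *Acat2* words occur in other genes, among them *Tcp1*, and whether counting used strand is not stated. *Tcp1*, at 154 to 303 CPM, was also called higher within the KO genotype (0.69, SE 0.15, adjusted p = 0.00586) and in the interaction (0.68, SE 0.22, adjusted p = 0.0415). Between the untreated groups *Tcp1* was not called (-0.19, adjusted p = 0.509), and its part in the *Acat2* values was not tested.

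*Mvk* encodes mevalonate kinase, the first of the phosphorylation steps, and its promoter is the one with 5 NF-Y boxes. Levels of *Mvk* were 39.3 and 45.5 CPM in untreated WT, 39.2, 41.3 and 46.2 CPM in DSS-treated WT, 39.2 and 28.2 CPM in untreated KO, and 40.9, 50.4 and 53 CPM in DSS-treated KO libraries. The 2 KO groups did not overlap, but the lowest DSS-treated KO library was close to untreated KO library 2. With DSS *Mvk* rose by 0.51 in log2 terms (SE 0.17, adjusted p = 0.03). Among the other settings, a block for the library number lost the call (adjusted p = 0.0714). It was also lost without DSS-treated KO library 2 (0.0688) or library 4 (0.0732). Without untreated KO library 3, which leaves 1 library in that group, the estimate was 0.30.

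*Pmvk* encodes phosphomevalonate kinase, the next enzyme. For *Pmvk* the levels were 39 and 41.9 CPM in untreated WT, 47.2, 48.8 and 55.7 CPM in DSS-treated WT, 32 and 25 CPM in untreated KO, and 44.1, 54.4 and 62.4 CPM in DSS-treated KO libraries. Untreated KO was again the lowest group, with no overlap. *Pmvk* rose by 0.91 in log2 terms (SE 0.16, adjusted p = 0.00183) within the KO genotype, a call kept in all 14 alternatives. *Mvd*, which encodes the decarboxylase that makes isopentenyl diphosphate, had 74.2 and 90.2 CPM in untreated WT, 83.2, 91.3 and 93.7 CPM in DSS-treated WT, 73.1 and 58.5 CPM in untreated KO, and 76.7, 109 and 138 CPM in DSS-treated KO libraries. DSS-treated KO library 1 exceeded untreated KO library 2 by little. For *Mvd* the change was 0.72 in log2 terms (SE 0.22, adjusted p = 0.0239), lost without untreated KO library 3 (adjusted p = 0.168), DSS-treated KO library 2 (0.0502) or DSS-treated KO library 4 (0.0556).

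*Idi1* encodes the isomerase of the isoprenoid units, and the window printed above holds 2 NF-Y boxes and 1 Sp1 box. *Idi1* levels were 152 and 158 CPM in untreated WT, 171, 154 and 175 CPM in DSS-treated WT, 143 and 92.1 CPM in untreated KO, and 167, 191 and 278 CPM in DSS-treated KO libraries. The KO groups did not overlap. Between them the estimate was 0.85 in log2 terms (SE 0.23, adjusted p = 0.015), and without untreated KO library 3 the adjusted p was 0.136. *Fdps* encodes farnesyl diphosphate synthase, at the branch between sterols and prenylation. It had 185 and 236 CPM in untreated WT, 191, 195 and 225 CPM in DSS-treated WT, 154 and 109 CPM in untreated KO, and 198, 250 and 314 CPM in DSS-treated KO libraries. Untreated KO lay below every other library. *Fdps* rose by 0.95 in log2 terms (SE 0.22, adjusted p = 0.00651) within the KO genotype, and without untreated KO library 3 the adjusted p was 0.071. As 86.4% of the 50-base words of its transcript occur in other annotated genes (21.3% for *Idi1*), the values of *Fdps* are uncertain in that respect. *Gm3571*, which shares some of these words, lay at 1.17 to 3 CPM and was not called in any comparison.

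Between the treated groups, no mevalonate pathway gene passed in edgeR or DESeq2, and none had an unadjusted p under 0.05. The estimates ran from -0.06 for *Hmgcs1* to 0.35 for *Idi1*, whose 95% interval was -0.11 to 0.80. The median of the 7 genes was 0.19. *Mvd* was called higher without DSS-treated KO library 1 (0.46, adjusted p = 0.0414).

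Squalene and lanosterol are made by Fdft1, which joins farnesyl units into squalene, Sqle, which oxidises squalene, and Lss, which closes the rings. None of the 3 genes was called in any of the 5 comparisons in edgeR or DESeq2, and *Lss* in the treated groups was the one value with an unadjusted p under 0.05. *Fdft1* had 215 and 262 CPM in untreated WT, 241, 248 and 274 CPM in DSS-treated WT, 274 and 212 CPM in untreated KO, and 178, 251 and 356 CPM in DSS-treated KO libraries. The DSS-treated KO libraries spanned the range of all others. *Sqle*, the oxidation step known to be rate-limiting in the later pathway, had 200 and 230 CPM in untreated WT, 206, 186 and 227 CPM in DSS-treated WT, 229 and 185 CPM in untreated KO, and 148, 190 and 269 CPM in DSS-treated KO libraries. Its log2 fold change was -0.03 in DSS-treated KO compared with either DSS-treated WT mice (95% interval -0.47 to 0.41) or untreated KO mice (-0.53 to 0.46). *Lss* had 75.2 and 97.4 CPM in untreated WT, 87.3, 90.3 and 114 CPM in DSS-treated WT, 97.9 and 69.3 CPM in untreated KO, and 62.9, 67.3 and 88.5 CPM in DSS-treated KO libraries. The treated groups overlapped by 1 library, and the log2 fold change of *Lss* was -0.41 (SE 0.18, adjusted p = 0.117). Without DSS-treated KO library 4 *Lss* was called lower (-0.58, adjusted p = 0.0477). For the response to DSS in KO mice the median of these 3 genes was -0.03, and that of the mevalonate pathway genes was 0.83. The difference between the 2 gene groups was not tested.

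Lanosterol is turned into cholesterol by demethylation, reduction and isomerisation, with 8 members in this segment. In DSS-treated KO compared with untreated KO mice *Cyp51* was called higher and *Dhcr7* lower, and the other 6 ran from 0.06 for *Sc5d* to 0.32 for *Msmo1*. *Cyp51*, the lanosterol demethylase, had 203 and 221 CPM in untreated WT, 223, 212 and 217 CPM in DSS-treated WT, 209 and 146 CPM in untreated KO, and 206, 296 and 417 CPM in DSS-treated KO libraries. DSS-treated KO library 1 lay just below untreated KO library 2, so the groups overlapped. For *Cyp51* the estimate was 0.79 in log2 terms (SE 0.26, adjusted p = 0.0323), lost without untreated KO library 3 (adjusted p = 0.226), DSS-treated KO library 2 (0.0555) or DSS-treated KO library 4 (0.0732). *Dhcr7*, the reductase of the final step from 7-dehydrocholesterol, had 103 and 115 CPM in untreated WT, 125, 129 and 125 CPM in DSS-treated WT, 146 and 135 CPM in untreated KO, and 83.7, 113 and 113 CPM in DSS-treated KO libraries. Among the 18 sterol enzymes it was the one called lower, and the KO groups did not overlap. For *Dhcr7* the estimate was -0.44 in log2 terms (SE 0.14, adjusted p = 0.0233), a call lost with a block for the library number (adjusted p = 0.0987). Without untreated KO library 2 or library 3, which leaves 1 library in that group, the estimates were -0.39 and -0.49. Compared with DSS-treated WT mice *Dhcr7* stood at -0.29 (SE 0.12, adjusted p = 0.1), with no overlap between the libraries.

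The other members of the segment were *Tm7sf2*, a sterol reductase, *Msmo1*, which oxidises methyl groups, *Nsdhl* and *Hsd17b7*, which complete their removal, *Ebp*, the isomerase, and *Sc5d*, the desaturase. None of these 6 was called in any of the 5 comparisons. Between the treated groups *Ebp* was nearest to the threshold, with 92.8, 92.2 and 88 CPM in DSS-treated WT and 90.7, 120 and 128 CPM in DSS-treated KO libraries. The estimate for *Ebp* was 0.31 in log2 terms (SE 0.13, adjusted p = 0.0872), and it was called without DSS-treated KO library 1 (0.44, adjusted p = 0.0071). *Nsdhl* lay at 70.8 and 85 CPM in untreated WT and 55.4 and 45.4 CPM in untreated KO libraries, which did not overlap, and the estimate was -0.63 in log2 terms (SE 0.21, adjusted p = 0.0921). In this comparison of 2 libraries with 2, 14 of the 29 members lay lower and 3 higher without overlap. The share of all genes that did so was not counted, so a lack of overlap says little by itself. Without DSS-treated KO library 1 *Nsdhl* was called lower (-0.60, adjusted p = 0.0275) and *Dhcr7* higher (0.39, adjusted p = 0.0234) in untreated KO compared with untreated WT mice.

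Of the 5 regulators and sterol carriers, *Insig1* was the one called between the treated groups. Insig1 holds the Scap and SREBP complex in the endoplasmic reticulum, and its gene is itself a known SREBP target. *Insig1* levels were 158 and 175 CPM in untreated WT, 194, 208 and 182 CPM in DSS-treated WT, 191 and 161 CPM in untreated KO, and 84.8, 112 and 139 CPM in DSS-treated KO libraries. All 3 DSS-treated KO libraries lay below the other 7. Against DSS-treated WT mice the log2 fold change was -0.80 (SE 0.16, adjusted p = 0.00726), a call kept in all 14 alternatives. Against untreated KO mice it was -0.65 (SE 0.18, adjusted p = 0.0153), a call lost with a block for the library number (adjusted p = 0.065). Without untreated KO library 2, which leaves 1 library in that group, it was -0.52. In this last comparison *Insig1* fell where 6 mevalonate pathway genes, which are also known SREBP targets, rose.

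*Srebf1*, the precursor gene of SREBP-1, had 138 and 149 CPM in untreated WT, 142, 137 and 169 CPM in DSS-treated WT, 107 and 99 CPM in untreated KO, and 123, 140 and 145 CPM in DSS-treated KO libraries. Untreated KO was the lowest group without overlap. *Srebf1* rose by 0.40 in log2 terms (SE 0.12, adjusted p = 0.0241) within the KO genotype. The call was lost with a block for the library number (adjusted p = 0.065) or without DSS-treated KO library 2 (0.0552) or library 4 (0.0531). Without untreated KO library 2 or library 3, which leaves 1 library in that group, the estimates were 0.46 and 0.34. *Srebf2*, the precursor gene of SREBP-2, was not called by edgeR, with 243, 243 and 286 CPM in DSS-treated WT and 292, 312 and 329 CPM in DSS-treated KO libraries. These groups did not overlap and the log2 fold change was 0.27 (SE 0.11, adjusted p = 0.0809). Within the KO genotype it stood at 0.31 (SE 0.12, adjusted p = 0.0621), again with no overlap. DESeq2 called *Srebf2* higher in both comparisons (0.28, adjusted p = 0.0386, and 0.29, adjusted p = 0.0478), as edgeR did without DSS-treated WT library 4 (0.39, adjusted p = 0.037, and 0.32, adjusted p = 0.0394). *Scap*, the escort gene, varied little, at 53.8 to 70.7 CPM over all 10 libraries, and its log2 fold change between the treated groups was -0.02 (95% interval -0.19 to 0.15). *Stard4*, a cytosolic sterol carrier, had 299, 284 and 273 CPM in DSS-treated WT and 176, 249 and 304 CPM in DSS-treated KO libraries, which overlapped. Within the KO genotype *Stard4* stood at 0.26 (SE 0.20, adjusted p = 0.297), and it was called higher without DSS-treated KO library 1 (0.41, adjusted p = 0.0272).

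**Figure D3:**
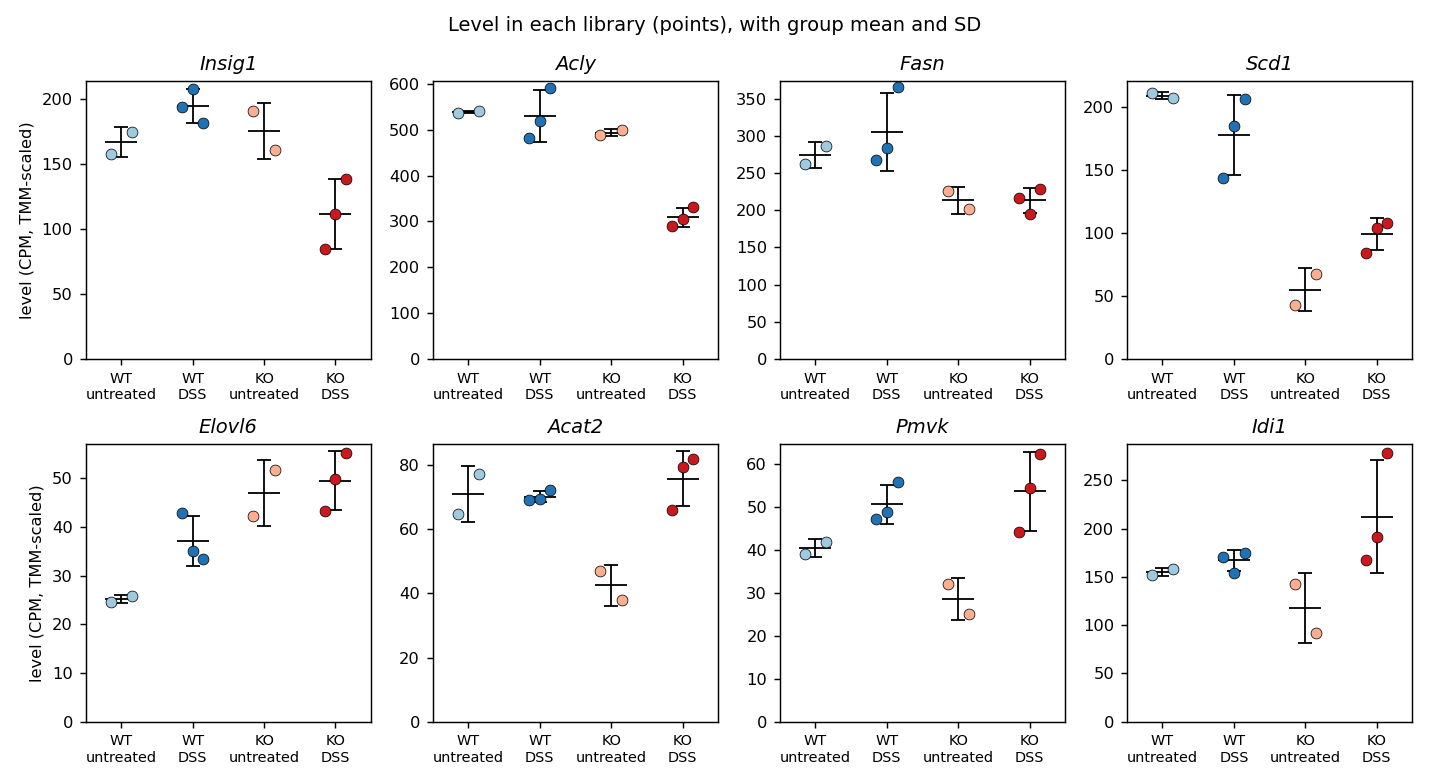
Levels of 8 members in each library (points, CPM scaled by TMM on the vertical axis, which starts at 0), with the group mean and SD, in the 4 groups (horizontal axis). *Insig1* and *Acly* are lowest in the 3 DSS-treated KO libraries, whereas *Scd1*, *Acat2* and *Pmvk* are lowest in the 2 untreated KO libraries.

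Fatty acid synthesis starts from citrate, which Acly cleaves to acetyl-CoA, and goes through Acaca and Fasn to palmitate, which Elovl6 lengthens and Scd1 and Scd2 desaturate. Between the treated groups 3 of these 6 genes were called lower in KO mice and 1 higher, beside 14.9% of all tested genes in each direction. *Acly* had 537 and 540 CPM in untreated WT, 481, 519 and 591 CPM in DSS-treated WT, 488 and 499 CPM in untreated KO, and 289, 306 and 331 CPM in DSS-treated KO libraries. The 3 DSS-treated KO libraries were close together and below all 7 others. The log2 fold change of *Acly* was -0.78 (SE 0.11, adjusted p = 0.00143) against DSS-treated WT mice and -0.68 (SE 0.12, adjusted p = 0.00158) against untreated KO mice. Both calls were kept in all 14 alternatives. Of the 29 members, *Acly* and *Insig1* were the ones called lower in both comparisons, which share the DSS-treated KO libraries.

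*Fasn* encodes fatty acid synthase. *Fasn* had 262 and 286 CPM in untreated WT, 267, 283 and 365 CPM in DSS-treated WT, 226 and 201 CPM in untreated KO, and 216, 195 and 228 CPM in DSS-treated KO libraries. All 5 KO libraries lay below the 5 WT libraries. The log2 fold change between the treated groups was -0.52 (SE 0.13, adjusted p = 0.0174), lost on omitting DSS-treated WT library 4 (adjusted p = 0.0606) or KO library 2 of the treated mice (0.0554). Between the KO groups it was 0.00 (95% interval -0.33 to 0.33). *Acaca*, the carboxylase that makes malonyl-CoA, had 79.1 and 82.9 CPM in untreated WT, 77.8, 90.1 and 93.4 CPM in DSS-treated WT, 50.7 and 50.8 CPM in untreated KO, and 59.8, 66.9 and 84.2 CPM in DSS-treated KO libraries. It was lowest in untreated KO mice, at -0.68 in log2 terms (SE 0.16, adjusted p = 0.0281) against untreated WT mice, a call lost without any 1 of these 4 libraries (adjusted p = 0.107 to 0.142). Within the KO genotype *Acaca* rose by 0.47 in log2 terms (SE 0.15, adjusted p = 0.0245), lost without untreated KO library 2 (adjusted p = 0.106) or library 3 (0.109). Against DSS-treated WT mice it was called lower without DSS-treated KO library 4 (-0.46, adjusted p = 0.0144). Of its 50-base words, 52.6% also occur in *Gm5182*, which lay at 3.88 to 6.91 CPM.

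*Scd1*, the stearoyl-CoA desaturase, showed the largest difference of any member. *Scd1* had 211 and 207 CPM in untreated WT, 144, 185 and 206 CPM in DSS-treated WT, 42.8 and 67.1 CPM in untreated KO, and 84.5, 104 and 108 CPM in DSS-treated KO libraries. Each KO library lay below each WT library, and untreated KO lay below DSS-treated KO. The log2 fold change was -1.93 (SE 0.23, adjusted p = 0.00314) in untreated KO compared with untreated WT mice and -0.85 (SE 0.19, adjusted p = 0.00956) in DSS-treated KO compared with DSS-treated WT mice. Both were kept in all 14 alternatives. *Scd1* rose by 0.85 (SE 0.21, adjusted p = 0.00971) in DSS-treated KO compared with untreated KO mice, lost without untreated KO library 2 (adjusted p = 0.0865). *Scd2*, its paralogue, had the highest level of the 29 members per transcript length, 447 CPM per kilobase in untreated WT libraries against 43.3 CPM per kilobase for *Scd1*. *Scd2* had 2270 and 2610 CPM in untreated WT, 2710, 2800 and 3000 CPM in DSS-treated WT, 1620 and 1340 CPM in untreated KO, and 2170, 2620 and 3460 CPM in DSS-treated KO libraries. Untreated KO was the lowest group without overlap, and *Scd2* rose by 0.89 (SE 0.20, adjusted p = 0.0057) within the KO genotype, lost without untreated KO library 3 (adjusted p = 0.0609). Between the treated groups *Scd2* stood at -0.04 (95% interval -0.43 to 0.35).

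*Elovl6*, which lengthens palmitate to stearate, was the member with the lowest level per transcript length, 4.23 CPM per kilobase in untreated WT libraries. *Elovl6* had 24.6 and 25.8 CPM in untreated WT, 42.9, 35 and 33.5 CPM in DSS-treated WT, 42.2 and 51.7 CPM in untreated KO, and 43.2, 49.9 and 55.3 CPM in DSS-treated KO libraries. The untreated WT libraries lay below all others, and the treated groups were separated by a narrow gap. *Elovl6* was higher by 0.90 in log2 terms (SE 0.16, adjusted p = 0.0119) in untreated KO compared with untreated WT mice, lost without untreated WT library 2 (adjusted p = 0.0836), untreated WT library 3 (0.0633) or untreated KO library 3 (0.0908). With DSS it was higher in KO than WT mice by 0.41 (SE 0.13, adjusted p = 0.0407). That call was lost in 8 of 14 alternatives, among them without untreated WT library 2 (adjusted p = 0.0623), untreated WT library 3 (0.0627), DSS-treated WT library 3 (0.132), DSS-treated WT library 4 (0.086), DSS-treated KO library 2 (0.0815) and DSS-treated KO library 4 (0.106).

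Without DSS the genotypes differed for a few members. In untreated KO compared with untreated WT mice 1 member (*Elovl6*) was called higher and 3 (*Acat2*, *Acaca* and *Scd1*) lower, where 3.87% and 5.97% of all tested genes were called. The median of the members was -0.18 and that of all genes 0.01. At an unadjusted p under 0.05, 2 members were higher and 8 lower, and DESeq2 called 1 higher and 6 lower. Over all genes DESeq2 called 1617 higher and 1907 lower, against 793 and 1223 in edgeR. Without untreated WT library 3 or untreated KO library 3, which leaves 1 library in a group, fewer genes were called lower, among the members and over all. Without DSS-treated KO library 1 there were 6 lower members and without library 4 there were 5. Over all genes 1575 and 1648 were then called lower. No member was called higher without untreated WT library 2, untreated WT library 3 or untreated KO library 3, and 2 were without DSS-treated KO library 1.

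WT mice showed no called response to DSS among the members. In DSS-treated WT compared with untreated WT mice edgeR called 0 of 29 in either direction, DESeq2 also called 0, and 2 were higher and 0 lower at an unadjusted p under 0.05. Of all tested genes 0.0195% were called higher and 0.00488% lower, so few genes of any kind passed. The median of the members was 0.08. The estimates ran from -0.23 for *Scd1* to 0.56 for *Elovl6* (95% interval 0.22 to 0.90, adjusted p = 0.458). *Scap* at 0.27 (95% interval 0.08 to 0.46) was the other member with an unadjusted p under 0.05.

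The interaction compares the responses of the genotypes, as the log2 change with DSS in KO mice minus that in WT mice. Of the 29 members 3 were called higher and 3 lower, where 13.8% and 13% of all tested genes were called. Neither count of members exceeds that share, and no difference from it was tested. *Acat2* (0.85, SE 0.19, adjusted p = 0.0111), *Fdps* (1.00, SE 0.30, adjusted p = 0.036) and *Scd1* (1.08, SE 0.29, adjusted p = 0.0244) responded more positively in KO mice. *Acly* (-0.65, SE 0.17, adjusted p = 0.0197), *Insig1* (-0.88, SE 0.26, adjusted p = 0.0327) and *Dhcr7* (-0.65, SE 0.19, adjusted p = 0.0331) responded more negatively. The member median was 0.25 and that of all genes 0.01. For the 3 positive genes the WT responses were -0.02, -0.05 and -0.23 and the untreated KO libraries were the lowest. For *Acly* and *Insig1* the DSS-treated KO libraries were the lowest. Leaving out a library in turn kept the sign of all 6 estimates, at 0.70 to 1.44 for *Acat2*, *Fdps* and *Scd1* and at -1.07 to -0.53 for *Acly*, *Insig1* and *Dhcr7*, while the number of calls changed. Over all genes 2830 were called positive and 2652 negative, and on leaving out 1 of the 4 untreated libraries, so that 1 was left in its group, 1477 to 1760 and 1347 to 1680. Among the members, the positive calls numbered 0 without untreated WT library 3, 1 without untreated WT library 2 or untreated KO library 3, and 8 on leaving out DSS-treated KO library 1. The negative calls numbered 0 without any 1 of the 4 untreated libraries and 1 without DSS-treated WT library 2 or library 3.

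**Figure D4:**
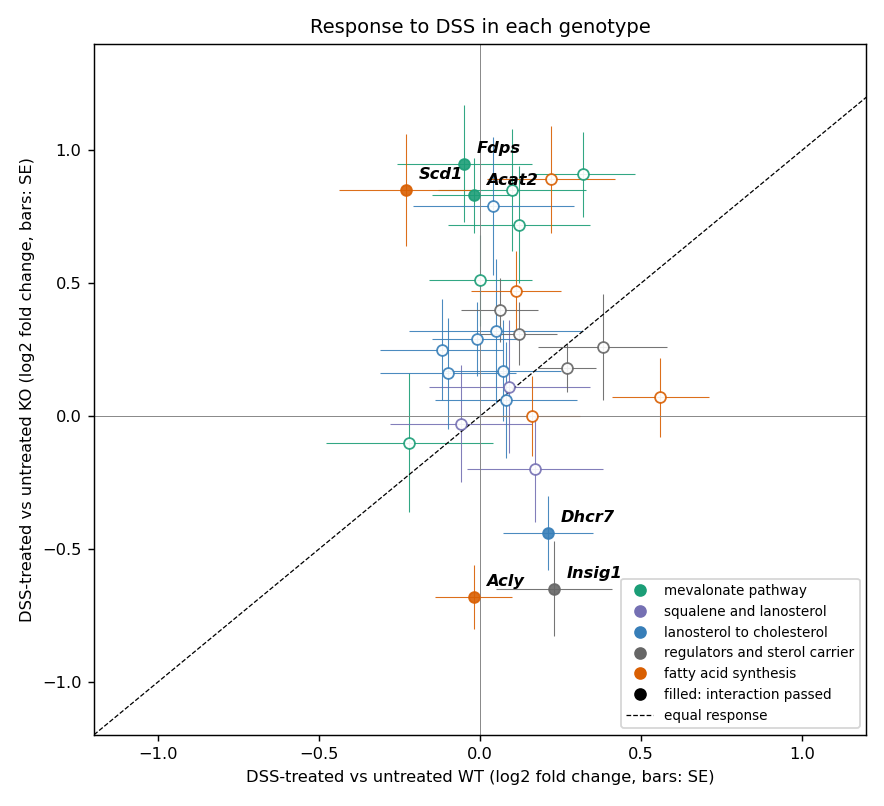
Response to DSS in KO mice (vertical axis) against that in WT mice (horizontal axis) for the 29 members, both as log2 fold changes with the SE of the fit, with filled and named points where the interaction passed and a dashed line for equal responses. Responses in WT mice lie between -0.23 and 0.56, and *Acat2*, *Fdps* and *Scd1* lie above the line at 0.83, 0.95 and 0.85 in KO mice, while *Dhcr7*, *Insig1* and *Acly* lie below it at -0.44, -0.65 and -0.68.

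Neighbouring pathway genes were read from 4 further lists. Other SREBP processing genes and targets had 12 tested genes, of which 3 were called higher and 5 lower in DSS-treated KO compared with DSS-treated WT mice, beside 14.9% of all tested genes in each direction. No difference of these 4 lists from all genes was tested. *Acss2*, which makes acetyl-CoA from acetate, was lower (-0.90, SE 0.16, adjusted p = 0.00365), with 138, 145 and 134 CPM in DSS-treated WT and 53.8, 82.3 and 87 CPM in DSS-treated KO libraries. *Fads1*, a desaturase of polyunsaturated fatty acids, was lower (-0.66, SE 0.14, adjusted p = 0.00887), and *Tmem97*, a sterol-responsive membrane protein gene, was higher (0.49, SE 0.09, adjusted p = 0.00468). Within the KO genotype 4 of the 12 rose with DSS and 2 fell (23.1% and 22.3% of all genes), with *Tmem97* at 0.95 (SE 0.11, adjusted p = 0.000174), *Elovl5* at 0.80 (SE 0.10, adjusted p = 0.000295) and *Acss2* at -1.0 (SE 0.17, adjusted p = 0.00154). Without untreated KO library 3 these counts were 3 and 1. Like *Acly*, the other source of cytosolic acetyl-CoA among these genes, *Acss2* was lower in DSS-treated KO libraries than in any other. Between the treated groups the count of higher genes in this list was 1 without DSS-treated WT library 2, DSS-treated WT library 3 or DSS-treated KO library 4, and that of lower genes was 3 without DSS-treated WT library 3.

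Among 9 tested genes of the isoprenoid branches, which use farnesyl diphosphate for prenylation, dolichol and ubiquinone, 3 were higher and 0 lower in DSS-treated KO compared with DSS-treated WT mice (14.9% of all genes in each direction), where DESeq2 also gave no lower gene and none was lower at an unadjusted p under 0.05. These were *Rce1*, which trims prenylated proteins (0.74, SE 0.08, adjusted p = 0.000565), *Fnta*, a farnesyltransferase subunit (0.42, SE 0.08, adjusted p = 0.00471), and *Dhdds* of dolichol synthesis (0.36, SE 0.09, adjusted p = 0.0138). The list of sterol efflux, esterification and liver X receptor genes had 12 tested genes, with 2 higher and 5 lower, where the share of all genes was again 14.9% each way. The oxysterol-responsive genes *Abcg1*, a sterol exporter (-1.05, SE 0.24, adjusted p = 0.0105), and *Mylip*, a ubiquitin ligase (-0.83, SE 0.20, adjusted p = 0.0148), were lower, and *Abcg5*, an exporter of sterols into the gut lumen, was higher (0.89, SE 0.23, adjusted p = 0.0182). These counts were 0 and 1 without DSS-treated WT library 3, and 1 and 2 without DSS-treated WT library 4 or DSS-treated KO library 4. The count of higher genes was also 1 without untreated WT library 3, either untreated KO library or DSS-treated KO library 2. Fatty acid activation and triglyceride synthesis had 14 tested genes, with 5 higher and 3 lower (14.9% of all genes each way). *Agpat2* (0.67, SE 0.11, adjusted p = 0.00294) and *Dgat1* (0.49, SE 0.10, adjusted p = 0.00853), acyltransferases of triglyceride synthesis, were higher, and *Mlxipl*, the carbohydrate-responsive activator of lipid synthesis genes, was lower (-0.60, SE 0.10, adjusted p = 0.00371). Without DSS-treated WT library 3 the counts were 2 and 2, and without DSS-treated KO library 2 they were 3 and 2. Median log2 fold changes of the 4 lists were -0.07, 0.28, -0.11 and 0.23 in this order, against -0.04 over all tested genes.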

How the data were processed

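RNA of colon tissue was sequenced by a service provider from a stranded mRNA library kit, per the labels and the methods. The genome build mm10, the aligners HISAT2 2.1.0 and Bowtie2 2.3.4.1, the trimmer Trimmomatic 0.38 and the assembler StringTie 2.1.3b are named in the submitters' processing notes, which do not say what each one did here. The authors deposited raw read counts per gene and library on which all tests ran. Whether counting used strand, and how it treated reads shared between genes, is not stated in the sources used. Another 30 per-library columns (FPKM, TPM and normalised levels) were not used, nor 8 columns of the authors' own comparisons, which hold fold changes, mean levels and p-values. Count columns were assigned to groups by name, since their numbers do not match the sample titles.

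Counts were analysed with edgeR 4.0.16 and limma 3.58.1 in R 4.3.3, using TMM factors, edgeR's default filter on the 4 groups, 1 quasi-likelihood fit of 4 group means over all 10 libraries, and Benjamini-Hochberg adjustment over all tested genes, with a call at an adjusted p under 0.05. The steps were tested on simulated data. No pair of libraries of the same group agreed within sampling noise, and pairs from different groups were not compared in this way. Alternatives were RLE size factors, DESeq2 1.42.0, no filter, a block for the library number, and leaving out each library in turn. Promoters and positions are from RefSeq (GRCm38.p6), transcript lengths from GENCODE vM21. The members, gene lists and tests were chosen with earlier results of these data known. Every member was named, with full values for those called in DSS-treated KO mice against either DSS-treated WT or untreated KO mice, or in the interaction. From each neighbouring list at most 3 called genes of smallest p were named per comparison. Other members were named after their values were seen.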

Additional observations from a re-analysis of the deposited data

Results flagged for a closer look

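For 6 members the response to DSS differed between the genotypes by the interaction term of edgeR's quasi-likelihood fit, with Benjamini-Hochberg adjustment over all tested genes. These were 3 of 29 members called higher and 3 lower, beside 13.8% and 13% of all tested genes. Members were thus not called more often than genes at large, and no difference from these shares was tested. Each value is the log2 change with DSS in KO mice minus that in WT mice.

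*Acat2*, a thiolase gene of the mevalonate pathway, had a difference of 0.85 (SE 0.19, adjusted p = 0.0111). It was lost without untreated WT library 3 (adjusted p = 0.0565) or untreated KO library 3 (0.0558). *Fdps*, which makes farnesyl diphosphate, had 1.00 (SE 0.30, adjusted p = 0.036). It was lost without untreated WT library 2 (adjusted p = 0.0503) or library 3 (0.142), DSS-treated WT library 2 (0.0699) or library 3 (0.0755), untreated KO library 3 (0.144), and DSS-treated KO library 2 (0.0564) or library 4 (0.0518). *Scd1*, a fatty acid desaturase gene, had 1.08 (SE 0.29, adjusted p = 0.0244), lost without untreated WT library 2 (adjusted p = 0.0726) or library 3 (0.0715) or untreated KO library 2 (0.0856).

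*Acly*, the source of cytosolic acetyl-CoA, had -0.65 (SE 0.17, adjusted p = 0.0197), lost without any 1 of the 4 untreated libraries (adjusted p = 0.0593 to 0.0741). *Insig1*, the SREBP retention gene, had -0.88 (SE 0.26, adjusted p = 0.0327), lost in 8 of 14 alternatives, with adjusted p values of 0.00825 to 0.118 over them. *Dhcr7*, of the last step to cholesterol, had -0.65 (SE 0.19, adjusted p = 0.0331), lost in 7 of 14 alternatives, with adjusted p values of 0.0105 to 0.128 over them. All 3 were lost without any 1 of the 4 untreated libraries.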

How the results depend on the processing

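Over 14 alternatives no call of a member reversed its direction. Of 2030 single-gene values set against the values reported, 1920 kept their side of the threshold, 76 lost a call and 34 gained one. RLE factors moved no count of called members past 1.5 times the reported one, and they shifted the median of all genes by 0.017 or less. Members called higher in DSS-treated KO compared with DSS-treated WT mice numbered 1, against 2 with DESeq2 and 0 with no filter. Members called lower in untreated KO compared with untreated WT mice numbered 3, against 6 with DESeq2, which called 1907 of all genes lower where edgeR called 1223. Leaving out each library in turn gave 0 to 4 higher members in DSS-treated KO compared with DSS-treated WT mice, 3 to 13 higher and 1 to 3 lower in DSS-treated KO compared with untreated KO mice, 0 to 2 higher and 1 to 6 lower in untreated KO compared with untreated WT mice, and 0 to 8 positive and 0 to 3 negative in the interaction. The counts over all genes changed too. Leaving out a DSS-treated library gave 560 to 1322 higher and 972 to 1648 lower genes in untreated KO compared with untreated WT mice. In the interaction it gave 1996 to 2978 positive and 1877 to 3026 negative genes. With an untreated library left out, fewer genes were called over all in both comparisons. The cause of these changes was not tested. With a group left at 1 library, that library was assumed to vary like the others.

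With the library number as a replicate block, the members called lower in DSS-treated KO compared with untreated KO mice numbered 1 in place of 3, those lower in untreated KO compared with untreated WT mice 6 in place of 3, and those positive in the interaction 6 in place of 3. Over all genes these counts were 2954 in place of 4570, 1355 in place of 1223 and 2276 in place of 2830. In DSS-treated KO compared with DSS-treated WT mice the block gave 2 higher and 2 lower genes of the other SREBP list in place of 3 and 5, 2 lower efflux genes in place of 5, and 3 higher and 2 lower triglyceride genes in place of 5 and 3. Over all genes the block gave 1954 higher and 1668 lower there, in place of 3048 each way. For the response to DSS in KO mice it gave 1 lower efflux gene in place of 3. The numbers gave no sign of a pairing. Correlations of deviations from group means ran from -0.14 to 0.16 over 10 pairs with the same number and from -0.16 to 0.19 over 27 other pairs, and 4 of 9 libraries with a partner correlated best with their own number. DSS-treated KO library 1 has no partner and is fitted exactly under the block.

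Groups of 2 and 3 libraries limit these tests. Libraries held 49689389 or more counts, and a limit set by depth was not tested.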

Other observations

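Neighbouring lipid genes also differed in comparisons not described above. In untreated KO compared with untreated WT mice 3 of 12 other SREBP processing genes and targets were called lower (5.97% of all tested genes), namely *Fads1* (log2 fold change -0.92, SE 0.18, adjusted p = 0.0138), *Tmem97* (-0.56, SE 0.11, adjusted p = 0.0161) and *Elovl5* (-0.41, SE 0.11, adjusted p = 0.04). None of these calls was made without untreated WT library 3 or without either untreated KO library. The sterol exporter gene *Abcg1* (-1.55, SE 0.29, adjusted p = 0.0135) and the sterol esterification gene *Soat2* (-1.51, SE 0.34, adjusted p = 0.0249) were lower as well, calls not made without untreated WT library 2 or either untreated KO library.

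Among genes that responded to DSS in KO mice, the exporter genes *Abcg5* (1.57, SE 0.27, adjusted p = 0.00151) and *Abcg8* (0.94, SE 0.23, adjusted p = 0.0079), whose products act as a pair, rose, and *Nr1h3*, a liver X receptor gene, fell (-0.93, SE 0.24, adjusted p = 0.0105). The *Abcg5* libraries were at 8.36 and 9.01 CPM in untreated KO and 18.3, 23.9 and 35.3 CPM in DSS-treated KO. Among genes of fatty acid activation and triglyceride synthesis, *Acsl5* rose (0.91, SE 0.13, adjusted p = 0.00049) while *Mlxipl* (-0.98, SE 0.11, adjusted p = 0.000223) and *Gpam* (-0.95, SE 0.16, adjusted p = 0.00155) fell. In that comparison the counts of higher and lower genes were 2 and 3 of 12 for the sterol efflux list (23.1% and 22.3% of all genes), 1 and 0 without untreated KO library 2 and 2 and 1 without library 3. They were 5 and 3 of 14 for the triglyceride list, and 2 and 2 without untreated KO library 3.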
